A study of Mus musculus with 6 samples.

Results

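miR-140 was followed through the 2 mature strands cut from its hairpin, mmu-miR-140-5p and mmu-miR-140-3p (miR-140-5p and miR-140-3p for short), in nephron progenitor cells of CD1 mice. These were the rows of the deposited small RNA table that carried either name, 2 of 1034 distinct mature miRNAs. They were picked because both stood higher at birth in these same libraries, so their difference between the stages is a description, with no p-value given and nothing read from whether it passed a threshold. Small RNA was sequenced at birth (P0) and before it (E14.5, an embryonic stage), in 3 libraries per stage, each from the kidneys of a single litter combined. All animals were CD1 with no engineered allele or agent named in the labels, and all cells were pulled down in the same way, with magnetic beads carrying an antibody to the integrin Itga8, after a short enzyme digestion that releases cells of the kidney cortex. The replicates were separate litters, so the spread between them includes differences between litters. The table held miRNAs alone, so the messenger RNA markers that define nephron progenitors could not be read from it.

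A miRNA hairpin is trimmed by Drosha in the nucleus and by Dicer in the cytoplasm into a short duplex, and one strand of the duplex is usually kept by an Argonaute protein and guides it to target messenger RNAs, while the other is usually degraded. The strand from the left side of the hairpin is named 5p and that from the right side 3p. miR-140 is best known from cartilage, where the transcription factor SOX9 drives it together with its host gene Wwp2, which encodes a ubiquitin ligase, and where its loss in mice disturbs skeletal growth. Nephron progenitors are the mesenchymal cells that renew themselves under the tip of the branching ureteric bud and turn into nephrons, and in mice they are used up shortly after birth.

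The hairpin and the strand that carried most of its reads are shown because the ratio of the arms is one of the readouts. Sequences are from RefSeq (GRCm38.p6). The Mir140 hairpin lies at chr8:107551244-107551313 on the plus strand and is printed with miR-140-3p in capitals. miR-140-3p (chr8:107551288-107551308, plus strand) and miR-497b (chr11:70234763-70234786, minus strand) are printed with the seed, bases 2 to 8, in capitals. The seed is the stretch that chiefly selects targets, and among 1679 mature mouse sequences in the RefSeq table only miR-497b had the same one as miR-140-3p.
Mir140 hairpin: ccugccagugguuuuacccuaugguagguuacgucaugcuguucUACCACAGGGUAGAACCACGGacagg
miR-140-3p: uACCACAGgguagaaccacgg
miR-497b: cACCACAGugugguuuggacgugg

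The deposited table placed miR-140-5p at chr8:107551249-107551270 and miR-140-3p at chr8:107551288-107551308, both on the plus strand, and listed each at 1 genomic position. In GENCODE M21 (GRCm38, the assembly that the submitters' processing notes call mm10) the hairpin lies within Wwp2 (chr8:107436365-107558595, plus strand), in the intron between exons 16 and 17 of transcript Wwp2-201, 1108 bases after the first and 963 bases before the second. It also falls within exon 1 of another Wwp2 transcript, annotated as a retained intron (chr8:107550895-107553547). Reads of Wwp2 itself were not part of the table.

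Reads recovered from the deposited values totalled 2649506 to 34934526 per library, with 2 of the 3 E14.5 libraries the smallest of the series. P0 replicate 1 stood apart from the other P0 libraries. On log2 TPM (reads per length, scaled to a sum of 1000000 per library) it was nearer to the E14.5 mean than to the mean of the other P0 libraries for 378 of the 670 miRNAs whose mean reached 1 TPM (56.4%). Neither arm of miR-140 was among those 378, which the choice of the arms for their higher P0 levels favours. The median log2 difference, P0 minus E14.5, over the 670 miRNAs was −1.20 in TPM. Median-of-ratios scaling, which sets libraries level on the typical miRNA instead of on the total, brought that median to −0.16. Both scales are therefore given for the arms. After scaling P0 replicate 1 still stood apart, being nearer to the E14.5 mean for 421 of the 670 miRNAs (62.8%).

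miR-140-3p was the more abundant arm and stood higher in all P0 libraries than in any E14.5 library. Its level was 1162 TPM in E14.5 replicate 1, 1110 in replicate 2 and 1384 in replicate 3. It was 5538 TPM in P0 replicate 1, 3349 in replicate 2 and 3777 in replicate 3. The groups did not overlap, the lowest P0 library being 2.42 times the highest E14.5 library, and P0 replicate 1 was the highest of the series. The means were 1219 ± 146 TPM at E14.5 and 4221 ± 1160 TPM at P0 (SD, n = 3 each), a ratio of 3.46. The log2 difference from limma on log2(TPM + 1) was 1.76 with a standard error of 0.46.

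miR-140-5p moved in the same direction by less. It had 590 TPM in E14.5 replicate 1, 457 in replicate 2 and 624 in replicate 3. It had 1376 TPM in P0 replicate 1, 1022 in replicate 2 and 832 in replicate 3. Here too the groups did not overlap, though the lowest P0 library was only 1.33 times the highest E14.5 library. The means were 557 ± 88.3 TPM at E14.5 and 1077 ± 276 TPM at P0 (SD, n = 3 each), a ratio of 1.93, and the limma log2 difference was 0.93 with a standard error of 0.49.

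The counts behind these levels were large. miR-140-3p had 2924 reads in E14.5 replicate 1, the smallest library, and 183405 in P0 replicate 1, the largest. miR-140-5p had 1559 and 47840 reads in the same libraries. As a share of the recovered reads, miR-140-3p took 0.110% (95% Wilson interval 0.106 to 0.114) in E14.5 replicate 1 and 0.525% (0.523 to 0.527) in P0 replicate 1, intervals that cover counting error only.

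After median-of-ratios scaling the P0 libraries drew together in their level of miR-140-3p. miR-140-3p had 682 scaled TPM in E14.5 replicate 1, 672 in replicate 2 and 713 in replicate 3. It had 5580 scaled TPM in P0 replicate 1, 5735 in replicate 2 and 5936 in replicate 3. Within each stage the libraries differed by only a few percent, with a coefficient of variation of 3.09% at E14.5 and 3.11% at P0, and P0 replicate 1 was no longer the highest library. The stage means were 689 ± 21.3 and 5750 ± 179 scaled TPM (SD, n = 3 each), a ratio of 8.34, and the limma log2 difference was 3.06 with a standard error of 0.38.

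On the same scale miR-140-5p had 346 scaled TPM in E14.5 replicate 1, 277 in replicate 2 and 322 in replicate 3. It had 1386 scaled TPM in P0 replicate 1, 1750 in replicate 2 and 1307 in replicate 3. The stage means were 315 ± 35.2 and 1481 ± 236 scaled TPM (SD, n = 3 each), a ratio of 4.70. The groups again did not overlap, and the limma log2 difference was 2.22 with a standard error of 0.40. The direction of both arms was thus the same on the 2 scales, while the size of the difference was not. In the authors' deposited table the log2 fold change was 3.10 with a standard error of 0.56 for miR-140-3p and 2.26 with a standard error of 0.57 for miR-140-5p, both taken as P0 over E14.5.

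**Figure D1:**
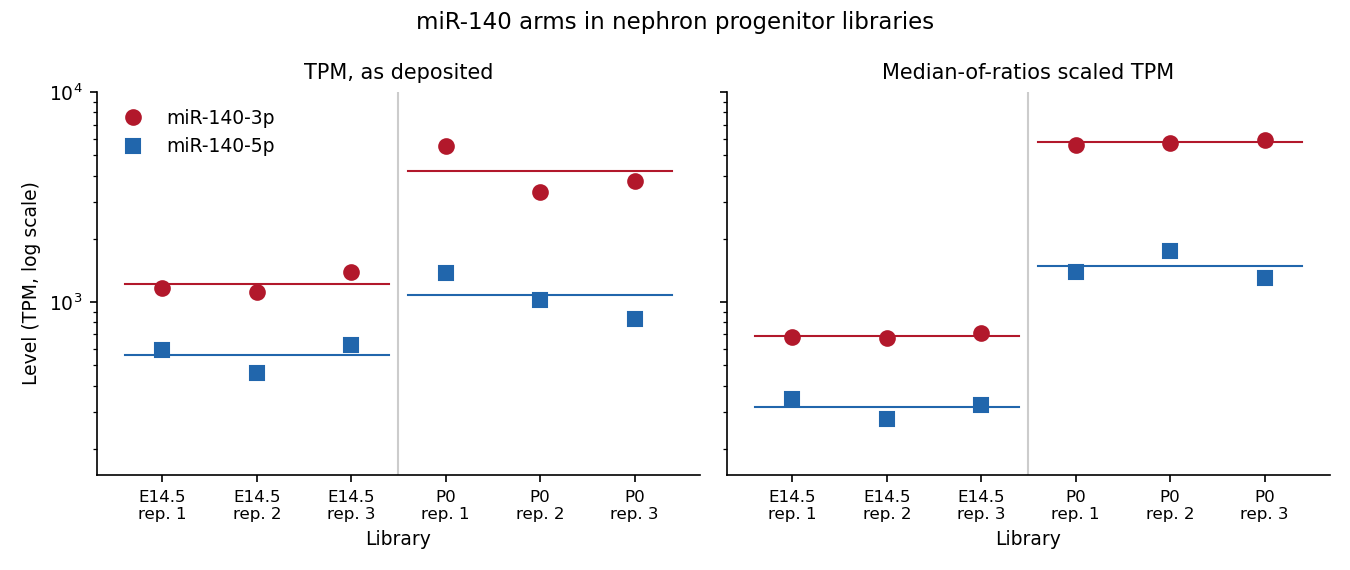
Level of each miR-140 arm in every library, in TPM (left) and median-of-ratios scaled TPM (right), on a log axis, with points for libraries and lines for stage means. miR-140-3p goes from 1110 to 1384 TPM at E14.5 to 3349 to 5538 TPM at P0, and after scaling its P0 libraries lie between 5580 and 5936.

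The place of each arm in the order of miRNAs, which no scaling between libraries changes, moved up as well. By TPM, miR-140-3p was the miRNA of rank 85 in E14.5 replicate 1, 78 in replicate 2 and 75 in replicate 3 and of rank 31 in P0 replicate 1, 31 in replicate 2 and 28 in replicate 3. miR-140-5p was of rank 115, 119 and 116 in the E14.5 libraries and of rank 64, 64 and 67 in the P0 libraries. P0 replicate 1 held the same ranks as P0 replicate 2, 31 for miR-140-3p and 64 for miR-140-5p, although its profile as a whole stood apart.

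Against all 670 miRNAs tested with limma, an adjusted p-value under 0.05 was reached in TPM by 1 of the 2 arms, miR-140-3p. The background was 1.34% of miRNAs called higher at P0 and 32.8% called lower. After scaling both arms were called, against 5.67% of miRNAs called higher and 5.22% called lower. Since the arms were chosen on this contrast, nothing is read from these counts. In TPM, miR-140-3p was no longer called without E14.5 replicate 1 (log2 difference 1.73) or without E14.5 replicate 3 (1.86), and miR-140-5p was called without P0 replicate 1 (0.74). The background itself moved with single libraries, from 9 miRNAs called higher and 220 lower in TPM to 52 and 358 without P0 replicate 1, 1 and 110 without E14.5 replicate 1, and 1 and 65 without E14.5 replicate 3. The other 3 libraries gave 5 and 152 (without E14.5 replicate 2), 2 and 112 (without P0 replicate 2), and 2 and 134 (without P0 replicate 3). After scaling it went from 38 and 35 to 150 and 173 without P0 replicate 1. Every P0 library stood above every E14.5 library for 3.13% of the 670 miRNAs in TPM and for 15.7% after scaling, and below it for 46.4% and 19.7%.

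A feature that the choice did not name was the spread within the stages. After scaling, the pooled within-stage standard deviation of log2 scaled TPM was 0.044 for miR-140-3p, the lowest of the 670 miRNAs. The next lowest was 0.099, for miR-411-5p, and the median was 0.67. For miR-140-5p it was 0.20, the 11th lowest. In TPM the values were 0.29 for miR-140-3p (the 26th lowest) and 0.31 for miR-140-5p (the 34th lowest), against a median of 0.70. Among the 113 miRNAs of highest mean TPM, miR-140-3p was the 9th lowest in TPM and miR-140-5p the 12th lowest, against a median of 0.68. After scaling they were the lowest and the 3rd lowest of these 113, against a median of 0.60. Both arms were thus among the steadier miRNAs between litters on either scale, but the first place of miR-140-3p was seen only after scaling. Without P0 replicate 1, miR-140-3p was the 2nd lowest after scaling (0.041) and the 36th lowest in TPM, and miR-140-5p the 81st and 94th lowest. The arms were picked with tests in view that favour a small spread, so these ranks are descriptions.

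**Figure D2:**
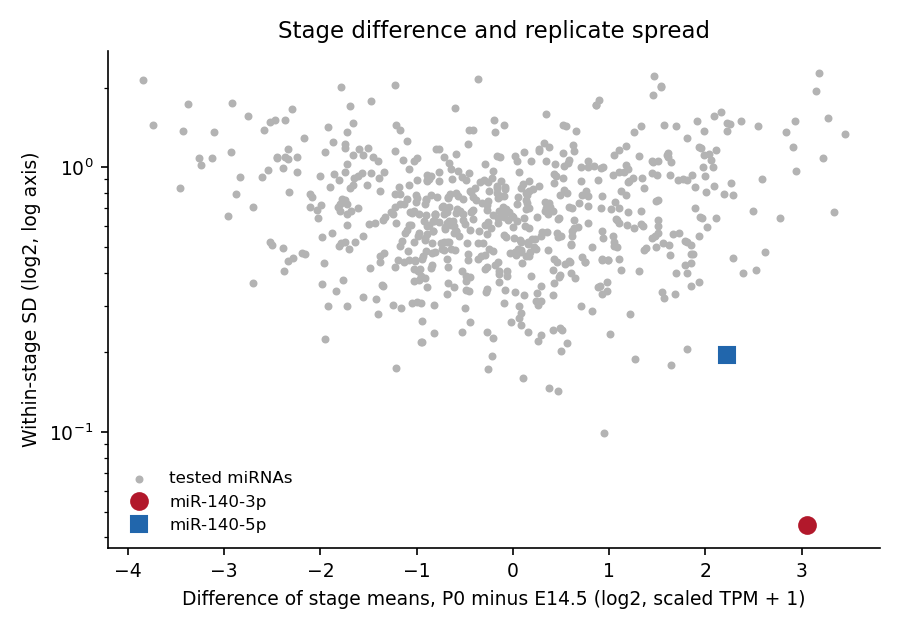
Each point is 1 of 670 miRNAs, with the difference of stage means (P0 minus E14.5, log2 of scaled TPM + 1) on the x axis and the pooled within-stage standard deviation (log2, log axis) on the y axis. miR-140-3p lies at 3.06 and 0.044, and miR-140-5p at 2.22 and 0.20.

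The ratio of the arms within a library is free of any scaling between libraries and is given as a description, with no test. The 3p arm led in every library. Per length, miR-140-3p was 1.97 times miR-140-5p in E14.5 replicate 1, 2.43 times in replicate 2 and 2.22 times in replicate 3. It was 4.03 times in P0 replicate 1, 3.28 times in replicate 2 and 4.54 times in replicate 3. The mean log2 ratio over both stages was 1.55 ± 0.49 (SD, n = 6), higher than 0 in 6 of 6 libraries.

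The 3p lead was wider at birth. Of the reads of both arms, the 3p arm held 65.2% in E14.5 replicate 1 (95% Wilson interval 63.8 to 66.6), 69.8% in replicate 2 (69.3 to 70.3) and 67.9% in replicate 3 (66.9 to 68.8). It held 79.3% in P0 replicate 1 (79.1 to 79.5), 75.7% in replicate 2 (75.5 to 76.0) and 81.2% in replicate 3 (81.0 to 81.5). The stages did not overlap. The intervals cover counting error only, and the spread between litters is that of the standard deviations. The stage means were 67.6% ± 2.30 and 78.8% ± 2.79 (SD, n = 3 each). Per length, the ratio averaged 2.20 ± 0.23 before birth (E14.5) and 3.95 ± 0.64 at birth (SD, n = 3 each), a log2 difference of 0.83, and of 0.81 without P0 replicate 1. This difference belongs to the contrast on which the arms were chosen and is given without a test.

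**Figure D3:**
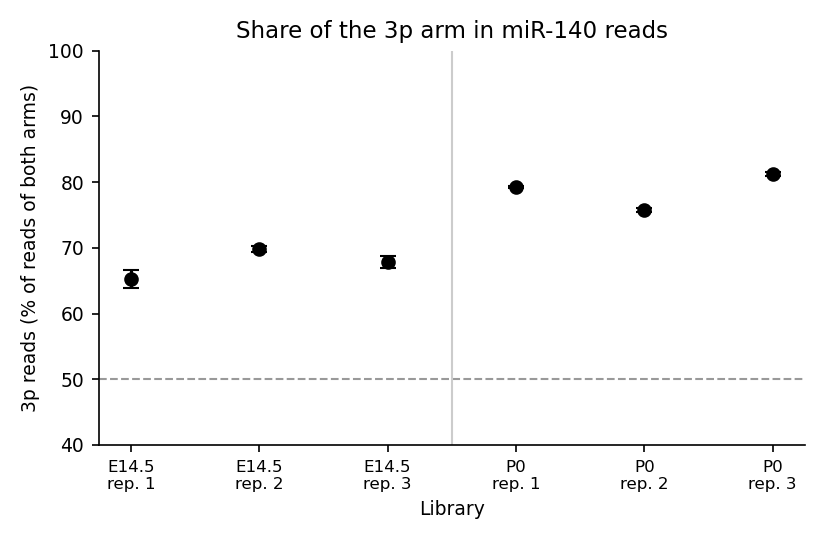
Share of miR-140-3p in the reads of both arms (percent) in every library, with 95% Wilson intervals as error bars, which cover counting error only, and a dashed line at equal shares. The E14.5 libraries lie between 65.2% and 69.8% and the P0 libraries between 75.7% and 81.2%.

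Among 207 hairpins whose arms both averaged 1 TPM or more, miR-140 was one of the more balanced. The 3p arm led on average in 95 of them (45.9%). The leading arm was typically 11.7 times the other (median absolute log2 ratio 3.54), against a log2 ratio of 1.55 for miR-140, and 48 hairpins were closer to equal arms. The stage difference of its ratio was moderate within this set. The ratio was higher in every P0 than in every E14.5 library in 17.9% of the hairpins and lower in 13.5%, and 128 hairpins had a larger absolute change than the 0.83 of miR-140. The ratio of miR-140 was steadier between litters than most, with a within-stage standard deviation of 0.20 on the log2 scale against a median of 0.79, and 8 hairpins had a smaller one. The set includes hairpins with an arm near 1 TPM, whose ratios rest on few reads, and hairpins of like level were not compared.

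**Figure D4:**
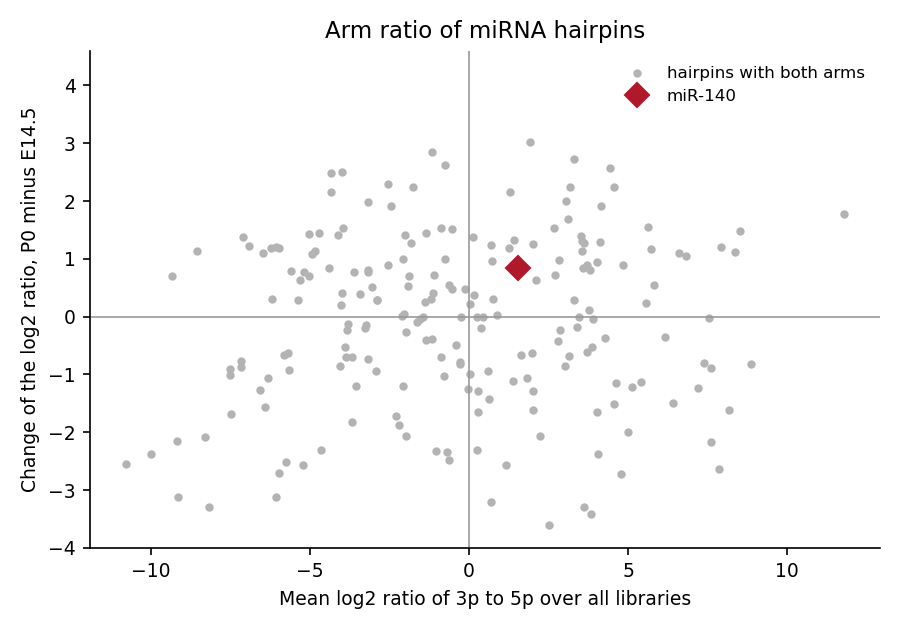
Each point is 1 of 207 hairpins, with the mean log2 ratio of 3p to 5p over all libraries on the x axis and the change of that ratio, P0 minus E14.5, on the y axis, both with 1 TPM added to each arm. miR-140 lies at 1.55 and 0.83, inside the cloud of the other hairpins.

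In TPM, miR-140 was the only 1 of the 207 hairpins (0.483%) with both arms higher in every P0 library than in every E14.5 library. After scaling there were 11 such hairpins (5.31%), namely miR-125a, miR-127, miR-140, miR-152, miR-1843a, miR-1843b, miR-339, miR-378a, miR-486a, miR-532 and miR-99b. With 1 library fewer such a count can only stay or grow, and it was 1 to 5 in TPM and 12 to 30 after scaling, with 5 and 30 without P0 replicate 1 and 3 and 16 without E14.5 replicate 2. As the choice rested on the rise of both arms, this is a description of how often hairpins shared it.

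Base composition moved with the stage in these libraries. GC content was known from RefSeq for 582 of the 670 miRNAs (86.9%), and across them the Spearman correlation of GC content with the log2 difference was 0.38 in TPM and 0.35 after scaling, across miRNAs that share the same 6 libraries. miR-140-3p has a GC content of 57.1%. The 155 other miRNAs within 5 percentage points of it had a median log2 difference of −0.94 in TPM and 0.09 after scaling. miR-140-3p thus stood 2.70 and 2.97 above miRNAs of like composition on the 2 scales, and in TPM 1 of the 155 had a larger difference. As miR-140-3p was picked for its rise, a place above such a group largely follows from the choice. The values are a description, and the part of GC content in the level of miR-140-3p was not tested. Across the 173 hairpins with both arm sequences in RefSeq, the difference in GC content between the arms had a Spearman correlation of 0.32 with the change of the arm ratio. Its part in the change of the miR-140 ratio was not tested.

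miR-497b, the other miRNA with the seed of miR-140-3p, was scarce and went the other way. It had 2.07 TPM in E14.5 replicate 1, 1.90 in replicate 2 and 2.32 in replicate 3, from 6, 49 and 13 reads. It had 0.45 TPM in P0 replicate 1, from 17 reads, and 0 reads in P0 replicates 2 and 3. A count of 0 allows up to 3 reads, or 0.123 TPM in P0 replicate 2 and 0.127 TPM in P0 replicate 3. Of the reads given to these 2 miRNAs, nearly all were thus those of miR-140-3p at both stages.

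The miRNAs whose profile over the 6 libraries was most like that of each arm were named by the root mean square difference of log2(TPM + 1), each miRNA centred on its own mean, among 431 other miRNAs that averaged 10 TPM or more. Nearest to miR-140-3p were miR-135a-2-3p (0.41), miR-140-5p (0.45), miR-125a-5p (0.46), miR-29a-3p (0.48) and miR-676-3p (0.54), against a median of 1.67. miR-125a-5p, the most abundant of these, had 7510 ± 2488 TPM at E14.5 and 18370 ± 3466 TPM at P0 (SD, n = 3 each). Nearest to miR-140-5p were let-7f-5p (0.31), let-7k (0.31), miR-223-3p (0.32), miR-101a-3p (0.38) and miR-30d-5p (0.39), against a median of 1.29. let-7f-5p, of the let-7 family known for its rise during development, whose near-identical members can share reads, had 26424 ± 2724 TPM at E14.5 and 38489 ± 9995 TPM at P0 (SD, n = 3 each). The arms were not each other's closest match, miR-140-5p being the 2nd nearest to miR-140-3p and miR-140-3p the 10th nearest to miR-140-5p.

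A list of 14 other miRNAs linked to cartilage and SOX9 was set beside the arms. All 14 were tested, and 4 of them also stand on the list of stromal markers. In TPM 0 were called higher and 7 lower by limma, against 1.34% and 32.8% of all miRNAs, and the median log2 difference of the list was −1.20, the same as over all miRNAs. After scaling 0 were called higher and 2 lower, against 5.67% and 5.22% of all miRNAs, with a median of 0.10. At these shares a count of 0 higher among 14 is near the background and says nothing particular to the list. The 2 were miR-675-5p and miR-675-3p, which are cut from the H19 transcript. At an unadjusted p-value under 0.05, limma found 0 higher and 8 lower in TPM, against 2.84% and 46.1% of all miRNAs. After scaling it found 3 higher (miR-148a-3p, miR-27b-3p and miR-455-3p) and 4 lower, against 15.4% and 18.7%. limma-voom found 3 higher and 3 lower, against 12.2% and 16.4%, and called 0 of them after adjustment.

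The 2 list members nearest to miR-140-3p in mean level were miR-199a-5p and miR-145a-5p. miR-199a-5p, a mesenchymal miRNA from the Dnm3os transcript, had 5021 ± 1240 TPM at E14.5 and 2127 ± 587 TPM at P0 (SD, n = 3 each), with a limma adjusted p of 0.0559. Its log2 difference was −1.25 in TPM and 0.04 after scaling. miR-145a-5p, a smooth muscle miRNA that also targets Sox9, fell from 1410 ± 425 TPM at E14.5 to 366 ± 271 TPM at P0 (SD, n = 3 each; limma adjusted p = 0.0200), while after scaling its log2 difference was −0.90 with a limma adjusted p of 0.234.

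miR-455, a cartilage miRNA from an intron of Col27a1, was singled out after its values were seen because its arms parted. miR-455-5p had 530 TPM in E14.5 replicate 1, 217 in replicate 2 and 512 in replicate 3 and 141 TPM in P0 replicate 1, 44.4 in replicate 2 and 61.3 in replicate 3. miR-455-3p had 61.3 to 130 TPM in the E14.5 libraries, and 53.7 TPM in P0 replicate 1, 132 in replicate 2 and 169 in replicate 3. The 5p arm led in the E14.5 libraries and in P0 replicate 1, and the 3p arm led in P0 replicates 2 and 3. Its 3p to 5p ratio was 0.18, 0.28 and 0.25 in the E14.5 libraries, then 0.38 in P0 replicate 1, 2.98 in replicate 2 and 2.76 in replicate 3. In miR-140, by contrast, the same arm led in all 6 libraries and P0 replicate 1 lay between the other P0 libraries in ratio. The leading arm differed between the stage means in 20 of the 207 hairpins, and no test of the difference between miR-455 and miR-140 was made.

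Markers of other cell types were present at both stages, and in bulk RNA fewer cells of a type and less of the miRNA per cell cannot be told apart. The 9 stromal markers, all present, summed to 85580 to 102772 TPM at E14.5 and 33691 to 46708 TPM at P0. After scaling they summed to 51870 to 55768 at E14.5 and 47057 to 71733 at P0. The largest members, miR-199a-3p and miR-143-3p, had log2 differences of 0.16 and 0.09 after scaling, while miR-214-3p had −1.69 and miR-214-5p −1.73. The other stromal markers lay between these values, and none of the 9 was called on that scale. The 2 endothelial markers summed to 26608 to 44921 TPM at E14.5 and 5634 to 8158 TPM at P0, and the 7 epithelial markers to 4658 to 24329 and 718 to 2446 TPM. The 5 erythroid markers summed to 242 to 417 TPM and then 128 to 194 TPM, and the 5 leukocyte markers to 797 to 1540 TPM and then 507 to 751 TPM. The summed TPM of each of these lists was thus lower in every P0 library than in every E14.5 library, as was the TPM of 46.4% of the 670 miRNAs, while both miR-140 arms were higher. Single markers went with the arms. Of 28 markers, 3 (miR-223-3p, miR-486a-5p and miR-486a-3p) had a higher mean TPM at P0, and miR-223-3p was called higher after scaling (log2 difference 1.64, limma adjusted p = 0.0402). That tally is in TPM, in which most miRNAs were lower at P0. After scaling further markers also had a positive log2 difference, without being called. After scaling the sums were lower in every P0 library for the endothelial and epithelial lists, while the other 3 overlapped between the stages. The one marker at 0 in a library was miR-486a-3p. No list of cartilage cell markers was made, though 4 of the stromal markers also stand on the list linked to cartilage. The part of cell composition in the miR-140 levels was not tested.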

How the data were processed

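Per the labels' protocols, small RNA libraries were prepared from total RNA with a QIAseq kit and read from a single end. Per the submitters' processing notes, featureCounts, DESeq2 1.26.0 and mm10 were used, and trimming, aligner and use of molecular tags are not given in the sources used here. The authors deposited 1 table of 1104 rows with a TPM value per library, each column summing to 1000000. Per the file headers it also holds the authors' baseMean (a normalised signal), a log2 fold change and its error, raw and adjusted p-values, and the score of the test.

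Whole reads were recovered by multiplying each TPM by its length less 1 base and dividing by the smallest such product in the library, which gave whole numbers for 100% of values (tolerance 0.0001). These, with size factors from 589 rows, returned the authors' deposited baseMean (largest relative difference 4.75e-15). Where a miRNA had several rows, that of highest total was kept, leaving 1034.

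limma 3.58.1 (R 4.3.3) with a variance trend was fitted to log2(TPM + 1) of the 670 miRNAs whose mean reached 1 TPM, with stage as the only term and Benjamini-Hochberg adjustment. Fold changes on this scale understate those of low miRNAs. A sign-flip permutation test of the arm ratio that the design held is not reported, because the rule that names the members also names that ratio. The fit was also run on simulated counts. It called 0.85% of 470 unchanged miRNAs. Of miRNAs changed by a log2 of 1 it called 74% (raised) and 60% (lowered), and by a log2 of 2, 98% and 92%. The simulation kept the most abundant miRNAs unchanged and had no outlying library and no shift of the typical miRNA. Its shares therefore do not carry over to the calls made here. Windows were fixed by coordinates, so shifted ends of a strand could not be told apart.

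The members, lists and tests were chosen with earlier results of these data known. Named miRNAs were the arms, miRNAs with the seed of miR-140-3p (that of miR-140-5p was not searched here), the 5 nearest profiles per arm, and from a list of 14 linked to cartilage the 2 nearest in level to miR-140-3p. Alternatives were other scalings, filters and pseudocounts, limma-voom, GC-matched differences, a replicate block and leaving out each library.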

Additional observations from a re-analysis of the deposited data

How the results depend on the processing

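As the choice of the arms favours, the log2 difference of both was positive under every alternative run. For miR-140-3p (1.76 in TPM) it was 3.06 with median-of-ratios scaling, with limma-voom and with that scaling plus the replicate block, 3.08 with that scaling without P0 replicate 1 (chosen after seeing the data), 2.70 relative to miRNAs of like GC content, and 1.55 to 1.91 when single libraries were left out in TPM. For miR-140-5p (0.93 in TPM) it was 2.22, 2.23, 2.22 and 2.27 in the same order without the GC comparison, which was not run for this arm, and 0.74 to 1.10 when single libraries were left out. The scalings differ by their construction in the reference they set level. The number of miRNAs called (229, of which 9 higher and 220 lower) was 73 (38 and 35) with median-of-ratios scaling, 28 (17 and 11) with limma-voom and 77 (41 and 36) with scaling and the replicate block. Without P0 replicate 1 and with scaling it was 323 (150 and 173). Leaving out single libraries in TPM gave 66 to 410, with 1 to 52 higher and 65 to 358 lower, the most without P0 replicate 1 and the fewest without E14.5 replicate 3. With the replicate block in TPM 247 were called (12 higher, 235 lower), and the calls of both arms were as without it. Same-numbered libraries were different litters, so the numbers were not taken to pair the samples. Their deviations from the stage means nonetheless had correlations of 0.04 to 0.19 (mean 0.14, against −0.07 for libraries of other numbers). Of the 6 libraries, 5 correlated best with their own number. Whether the number marks something shared between the stages was not tested. The mean log2 arm ratio was 1.43 to 1.67 with 1 library left out. The stage difference of the arm ratio was 0.73 to 0.96 with 1 library left out and 0.83 with the replicate block. Depth did not limit the arms, whose lowest count was 1559 reads, but did limit miR-497b.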
